A study of Mus musculus with 9 samples.

Results

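Hox genes encode homeodomain transcription factors that give cells along the body axis and the limb their position. In the mouse they lie in 4 clusters, Hoxa, Hoxb, Hoxc and Hoxd, and are numbered by paralogue group from 1, at the 3′ end of a cluster and active in anterior tissue, to 13, at the 5′ end and active in the most posterior or distal tissue. In the limb, groups 9 and 10 are known for patterning the thigh, group 11 the lower leg and group 13 the foot, and adult connective tissue, satellite cells and muscle keep much of this code. The genes were chosen by symbol alone, as Hoxa, Hoxb, Hoxc or Hoxd followed only by digits, which gave 39 of the 32594 genes in the table. They were compared between 5 wild type (WT) libraries and 4 libraries of SMN delta 7 mice (SMA), along each cluster, as a record of limb position and of whether like tissue was dissected.

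All 9 libraries came from skeletal muscle of the hindlimb, and both genotypes had the strain background FVB/N. SMN delta 7 mice model spinal muscular atrophy, a disease of motor neurons caused by too little survival motor neuron protein. Smn1, the mouse gene for that protein, had 11.1 to 13.8 CPM (counts-per-million after scaling of the library totals) in WT and 1.40 to 2.72 CPM in SMA. Age, litter, the muscles taken and the alleles of the model are not given in the labels, and nothing there says that each library came from its own animal, so p-values measure the spread between these libraries, which may be technical in part. By Xist and Y-linked genes 4 WT libraries and 1 SMA library were male. Totals ran from 24917665 to 35087722 counts, of which 5200 to 7540 fell on Hox genes. On the second principal component of all genes SMA 3 scored -43.4, where SMA 1, 2 and 4 scored 14.6 to 15.4, and WT 5 scored 18.2, where the other WT libraries scored -16.5 to 1.83.

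The promoters of 4 Hox genes that differed between the groups are printed here so that their values below can be read beside the sequence. Each is the stretch from 250 to 51 bases before the RefSeq start on GRCm38.p6, the same assembly as mm10, 5′ to 3′ on the strand of the gene, for Hoxa5 (chr6:52204638-52204837, minus strand), Hoxa6 (chr6:52208723-52208922, minus strand), Hoxd11 (chr2:74682073-74682272, plus strand) and Hoxd4 (chr2:74721728-74721927, plus strand). The first 3 genes were higher in SMA and Hoxd4 was lower. In GENCODE M21 the windows of Hoxd11 and Hoxd4 lie inside the span of the gene, so the start used is not the outermost one. The RefSeq start of Hoxa6 lies 50 bases from the nearest start in GENCODE M21.
Hoxa5: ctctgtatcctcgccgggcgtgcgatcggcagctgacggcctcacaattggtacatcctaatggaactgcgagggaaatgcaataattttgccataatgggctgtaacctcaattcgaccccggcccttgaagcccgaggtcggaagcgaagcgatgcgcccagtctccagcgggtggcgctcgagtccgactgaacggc
Hoxa6: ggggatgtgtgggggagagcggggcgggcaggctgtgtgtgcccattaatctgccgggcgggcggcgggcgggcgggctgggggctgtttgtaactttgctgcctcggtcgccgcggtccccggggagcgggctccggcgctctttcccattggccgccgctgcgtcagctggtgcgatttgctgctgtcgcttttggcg
Hoxd11: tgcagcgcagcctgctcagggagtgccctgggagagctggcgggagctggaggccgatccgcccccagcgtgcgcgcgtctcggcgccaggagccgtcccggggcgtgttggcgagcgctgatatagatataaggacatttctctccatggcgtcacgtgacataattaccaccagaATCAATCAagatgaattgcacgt
Hoxd4: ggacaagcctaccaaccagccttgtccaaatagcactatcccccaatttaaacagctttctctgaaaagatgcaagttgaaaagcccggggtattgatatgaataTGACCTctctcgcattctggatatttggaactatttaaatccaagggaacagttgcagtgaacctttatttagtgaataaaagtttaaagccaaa
Capitals mark matches, on either strand, to any of 4 motifs: TGATNNAT, bound by HOX and PBX proteins together, TTTATG, of the CDX type, AGGTCA, the half-site of nuclear receptors such as the retinoic acid receptors, and TATAAA, the TATA box. Hoxd11 held 1 match, a HOX and PBX site, Hoxd4 held 1 match, a nuclear receptor half-site, and Hoxa5 and Hoxa6 held 0. Of 32851 windows of this length in RefSeq, 6.44% held TGATNNAT, 8.78% TTTATG, 11.4% AGGTCA and 9.14% TATAAA. Among 24 windows of 22 Hox genes, 3 held TGATNNAT, 4 TTTATG, 6 AGGTCA and 3 TATAAA. All windows stop 51 bases before the start, so a TATA box nearer the start would not be counted. GC content was 59.0%, 71.0%, 61.0% and 39.0% in the 4 windows in the order printed, against a median of 51.5% over all windows. Hoxc9, the gene with the lowest adjusted p in the comparison below, is not in this promoter table.

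Levels differed widely along the clusters, and Hoxc10 and Hoxd8 were the highest genes in both genotypes. To compare genes, levels are given as CPM divided by the length in kilobases of the exons of their coding transcripts. Hoxc10, a hindlimb gene of group 10, had the highest level, with a mean of 26.2 CPM per kilobase in WT (range 20.6 to 31.4, n = 5) and 22.7 ± 0.990 in SMA (SD, n = 4). Hoxd8 followed with 11.8 ± 1.39 and 9.47 ± 1.41 CPM per kilobase. By means over all 9 libraries of both genotypes, a group of genes came next. These were Hoxa4 with 5.79 CPM per kilobase, Hoxc9 with 5.67, Hoxa9 with 5.61, Hoxa10 with 5.53, Hoxd9 with 5.35 and Hoxa5 with 4.20. Hoxc9 and Hoxa5 differed between genotypes, with means of 3.99 and 3.19 CPM per kilobase in WT and 7.78 and 5.45 in SMA, so their rank differed by genotype. Hoxb7 and Hoxb3 were the highest of the Hoxb cluster, at 1.59 and 1.44 CPM per kilobase.

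The ends of the clusters were nearly silent. Hoxb1, Hoxb13 and Hoxd12 had 0 counts in all 9 libraries, which allows at most 3 counts in a library, or 0.0798 to 0.132 CPM, for counting error only. Hoxc12 had 1 count in all, in WT 2, and Hoxd1 had 2, in WT 1 and WT 5. The group 13 genes of the distal limb were scarce, with 0 to 21 counts of Hoxa13, 0 to 38 of Hoxc13 and 2 to 9 of Hoxd13 in a library. These 8 genes did not pass the filter on low counts and were not tested, which left 31 of the 39.

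**Figure D1:**
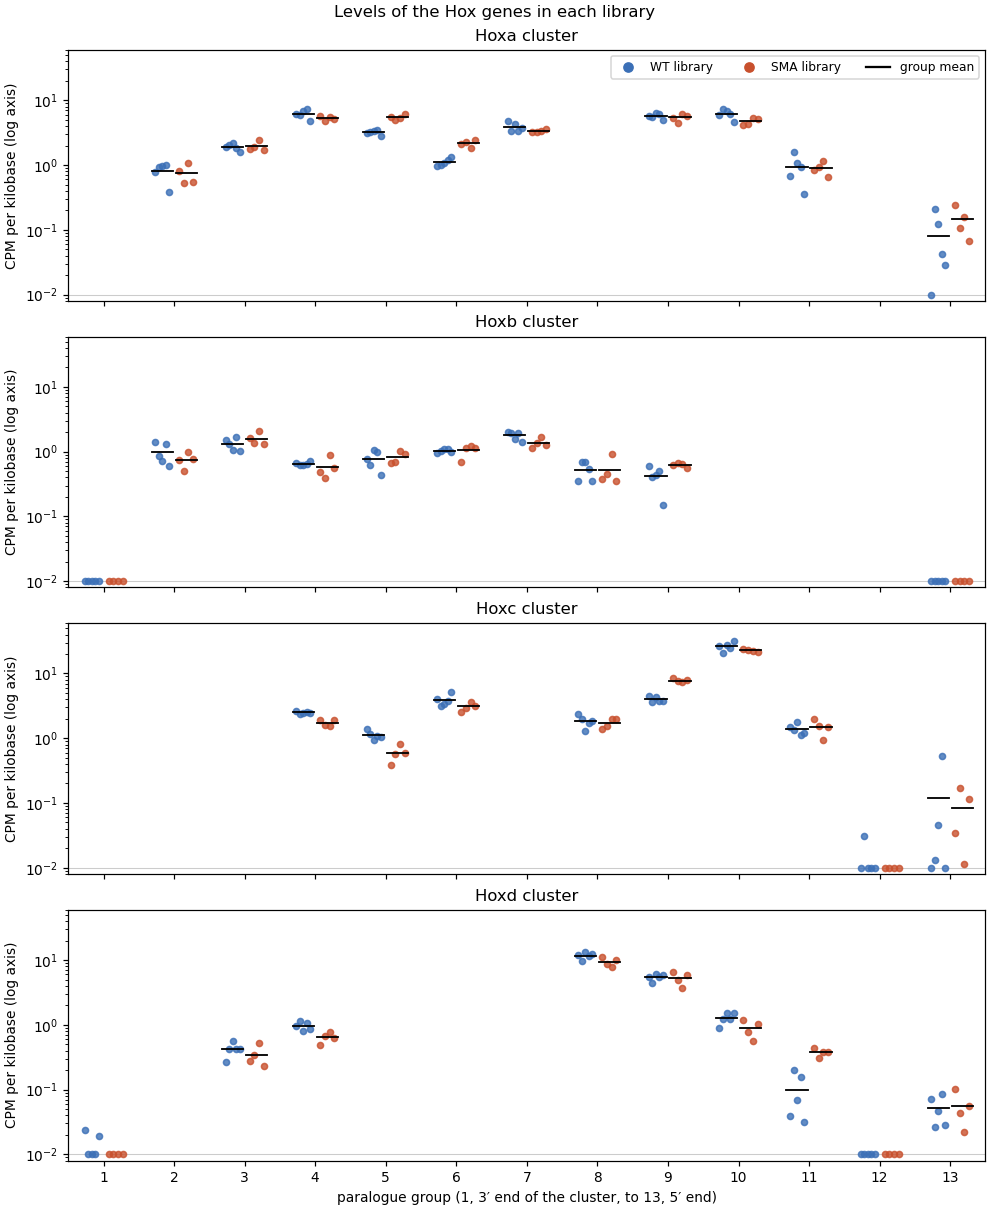
Levels of Hox genes in each library, as CPM per kilobase of coding-transcript exon on a log axis, against paralogue group, with WT libraries in blue, SMA libraries in red and a line at each group mean. Values under 0.01, among them all zeros, are drawn at 0.01. Hoxc10 is the highest gene in both groups, and the WT and SMA points of Hoxa5, Hoxa6, Hoxc4, Hoxc5, Hoxc9, Hoxd4 and Hoxd11 do not overlap.

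The shares of Hox reads taken by each class of genes overlapped between the groups. Groups 9 to 13 took 51.4%, 51.6%, 53.6%, 50.9% and 54.8% of Hox reads per kilobase in WT 1 to 5 and 55.5%, 54.9%, 51.5% and 53.2% in SMA 1 to 4. The ranges overlapped, and the means were 52.5% ± 1.64 (SD, n = 5) and 53.8% ± 1.80 (SD, n = 4). Groups 5 to 8 took 31.3% ± 0.773 in WT and 31.6% ± 1.24 in SMA, and groups 1 to 4 took 16.3% ± 1.90 and 14.7% ± 1.56. By cluster, Hoxa took 30.7% ± 3.53 in WT and 32.3% ± 1.73 in SMA, Hoxc 41.5% ± 3.85 and 41.8% ± 1.46, Hoxb 7.58% ± 1.23 and 7.79% ± 1.55, and Hoxd 20.2% ± 1.07 and 18.1% ± 2.60. SMA 3 had the largest Hoxb share of the 9 libraries, 10.1%, and the smallest Hoxd share, 14.7%, against 17.8% to 20.9% in the other SMA libraries. WT 5 had the largest Hoxc share, 47.7%, and the smallest Hoxa and Hoxb shares, 25.3% and 5.75%. These shares were compared within libraries and need no scaling between them. The summed level of all 39 genes was 222 ± 12.4 CPM in WT and 209 ± 8.15 CPM in SMA.

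**Figure D2:**
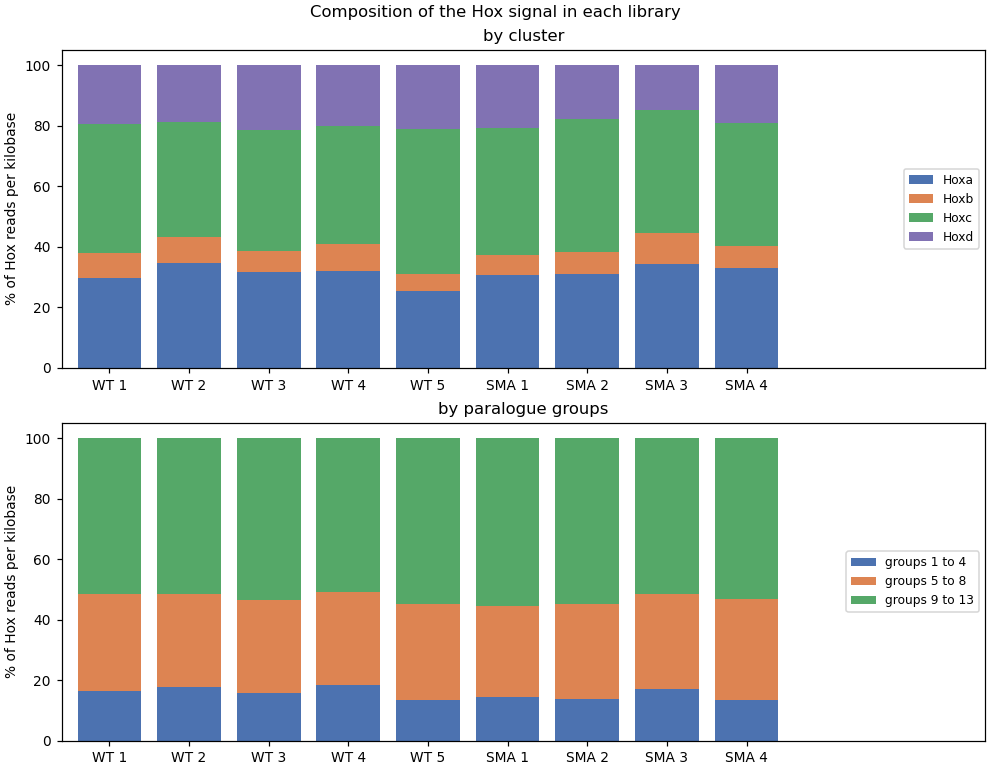
Share of Hox reads per kilobase, in percent, taken by each cluster (top) and by 3 classes of paralogue group (bottom) in each of the 9 libraries, with 1 stacked bar a library. Groups 9 to 13 took between 50.9% and 55.5% in every library, and the Hoxd share was smallest in SMA 3, at 14.7%.

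The libraries of both groups also overlapped for genes that mark hindlimb and forelimb. Tbx4, a T-box factor of the hindlimb, had 5.41, 5.97, 6.86, 4.86 and 3.72 CPM in WT 1 to 5 and 7.27, 6.66, 5.37 and 5.42 CPM in SMA 1 to 4. Pitx1, a homeodomain factor that sets hindlimb identity, had 1.32, 1.61, 0.8003, 0.419 and 0.532 CPM in WT and 1.06, 0.506, 0.727 and 1.07 CPM in SMA. Tbx5, the T-box factor of the forelimb, had 0.660, 0.774, 0.572, 0.594 and 0.425 CPM in WT and 0.258, 0.346, 0.699 and 0.842 CPM in SMA. The groups overlapped for all 3 genes. Their log2 fold changes, SMA over WT, were 0.20 ± 0.17 for Tbx4, -0.16 ± 0.40 for Pitx1 and -0.17 ± 0.35 for Tbx5 (SE), and none of the 3 passed (edgeR's quasi-likelihood F-test, adjusted by Benjamini-Hochberg, adjusted p = 0.327, 0.758 and 0.697).

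Hoxa11, Hoxa13 and Hoxd13 overlapped between the groups. Hoxa11, the lower leg gene of its cluster, had 1.54, 3.58, 2.44, 2.17 and 0.815 CPM in WT 1 to 5 and 1.92, 2.13, 2.66 and 1.49 CPM in SMA 1 to 4. WT 2 was the highest and WT 5 the lowest of all 9, so the WT libraries spanned the whole SMA range, and the log2 fold change was -0.048 ± 0.34 (edgeR, adjusted p = 0.914). Hoxa11os, transcribed from the opposite strand of the same locus, had 1.36, 4.58, 2.94, 3.43 and 1.21 CPM in WT and 3.21, 3.67, 5.17 and 2.08 CPM in SMA, again lowest in WT 5 and WT 1. In GENCODE M21, 24.8% of the exon bases of Hoxa11 lie under exons of Hoxa11os, and the strand setting of the counting is not stated, so reads of this pair cannot be told apart there. Hoxa13, of the foot, had 0, 0.516, 0.305, 0.105 and 0.0709 CPM in WT and 0.601, 0.266, 0.391 and 0.168 CPM in SMA. WT 1 and WT 5 were thus low for all 3 transcripts, and WT 2 was the highest WT library for each. Hoxd13 lay between 0.0645 and 0.210 CPM in WT and between 0.0559 and 0.258 CPM in SMA, with no separation of the groups.

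Hoxc13, known for its role in hair follicles and nails, stood out in 1 library. It had 0, 0.0323, 0.114, 1.33 and 0 CPM in WT 1 to 5 and 0.0859, 0.426, 0.0280 and 0.281 CPM in SMA 1 to 4, so WT 4 was far above the other 8. The skin keratin gene Krt5 had 10.00 CPM in WT 4, at most 0.648 in the other WT libraries and 0.0573 to 1.74 in SMA, and Krt14 had 3.53 CPM in WT 4, at most 0.572 in the other WT libraries and at most 1.01 in SMA. SMA 2 and SMA 4 were next highest for Hoxc13 and held 1.36 and 1.74 CPM of Krt5. All 5 skin markers had counts in some library. Trp63 rose in SMA, with 8.78 to 12.4 CPM in WT and 21.1 to 28.9 CPM in SMA (edgeR, adjusted p = 5.7e-06), while Krt5, Krt14 and Krt10 did not pass and Krt1 was not tested. The list's summed level was 13.6 to 30.8 CPM in WT and 27.3 to 34.8 CPM in SMA. The part of skin in the Hoxc13 values was not tested.

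**Figure D3:**
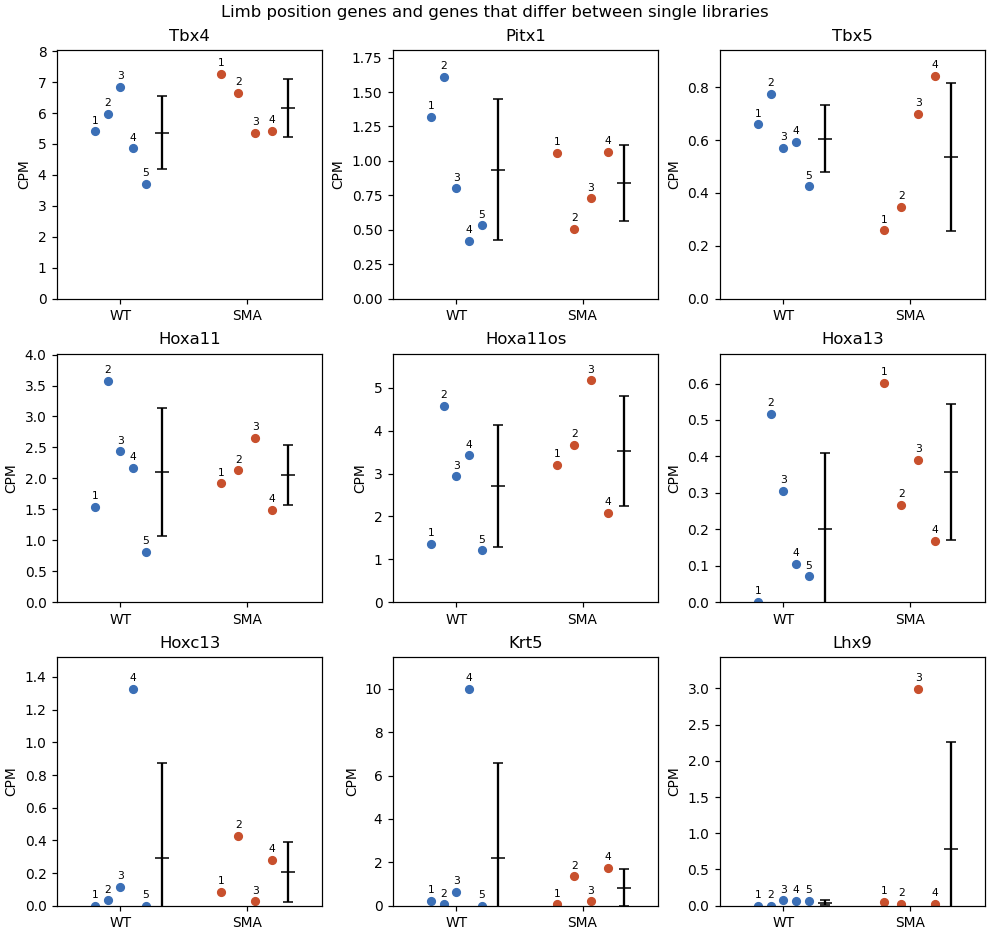
CPM in each library, numbered by replicate, for the limb field genes Tbx4, Pitx1 and Tbx5, the distal limb transcripts Hoxa11, Hoxa11os and Hoxa13, and Hoxc13, Krt5 and Lhx9, with the group mean and SD in black at the right of each group (bars cut off at 0). WT 4 is the highest library for Hoxc13 and Krt5, at 1.33 and 10.00 CPM, and SMA 3 for Lhx9, at 2.99 CPM.

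In the comparison of SMA with WT over all genes, 4 Hox genes rose, 5 fell and 22 did not pass. The 9 called genes were 29.0% of the 31 tested, where 54.9% of all 15873 genes tested were called. By direction, 27.7% of all genes tested were called higher and 27.2% lower. Among the 12842 genes in the abundance range of the tested Hox genes, mean CPM 0.248 to 47.1, 53.2% were called. That range holds most of the genes tested, so it is not a close match for abundance. The libraries of the 2 groups did not overlap for 7 Hox genes, 4 higher and 3 lower in SMA, where that held for 44.2% of all genes tested. The median log2 fold change of the Hox genes was -0.12 against 0.006 for all genes, and the median of its absolute size was 0.30 against 0.39. A fitted change of at least 2-fold, in either direction, was found for 1 Hox gene, or 3.23% of the 31 tested. Such a change was found for 2385 of all 15873 genes tested, or 15.03%. The Hox gene was Hoxd11, which passed the filter on low counts only through SMA.

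The falls, unlike the rises, changed with the scaling. With libraries scaled to their totals alone, the median over all genes moved to 0.24 on the log2 scale and that over the Hox genes to 0.099. The same 4 genes were then called higher and 1, Hoxc5, was called lower, where 40.2% of all genes tested were called higher and 13.6% lower. Without WT 5 and SMA 3, a comparison chosen after seeing the data, 4 Hox genes were called higher and 8 lower. Of all genes tested there, 58.95% were called, against 54.9% with all 9 libraries. The 4 higher Hox genes were again Hoxa5, Hoxa6, Hoxc9 and Hoxd11.

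**Figure D4:**
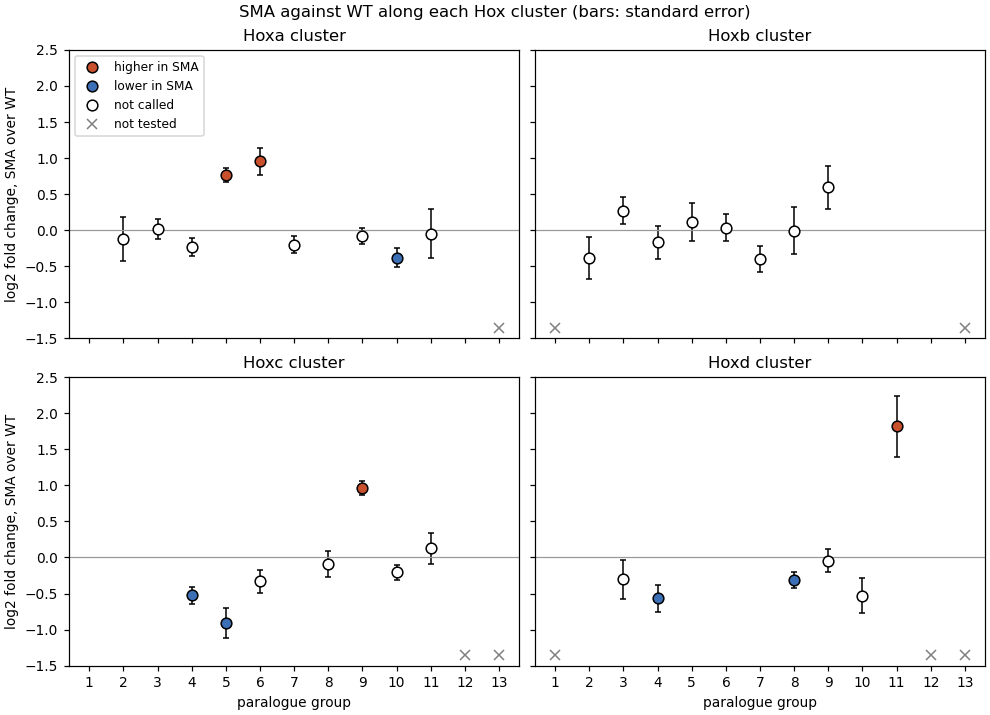
Log2 fold change of SMA over WT for tested Hox genes against paralogue group, 1 panel a cluster, with standard errors from edgeR. Red points were called higher and blue points lower at an adjusted p of 0.05, white points were not called, and grey crosses at the foot mark the 8 genes not tested. Hoxa5, Hoxa6, Hoxc9 and Hoxd11 stand above neighbours that were not called higher.

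Hoxc9, a gene of posterior trunk and upper hindlimb, rose with the smallest error. It had 10.8, 8.55, 10.2, 8.77 and 9.04 CPM in WT 1 to 5 and 20.01, 18.0, 17.3 and 18.6 CPM in SMA 1 to 4. Every SMA library was above every WT library. The gene rose 1.95-fold, by 0.96 ± 0.093 on the log2 scale (SE; edgeR, adjusted p = 5.7e-06), from 9.47 ± 0.979 to 18.5 ± 1.159 CPM (SD, n = 5 and 4). Its neighbours in the cluster (chromosome 15, mm10) did not pass. Hoxc10 (102966796 to 102971893) had 51.2, 39.2, 52.8, 47.0 and 59.97 CPM in WT and 45.5, 44.3, 42.3 and 41.3 CPM in SMA, with a log2 fold change of -0.21 ± 0.11 (edgeR, adjusted p = 0.121). Hoxc8 (102990607 to 102994111) had 4.44, 3.68, 2.44, 3.25 and 3.51 CPM in WT and 2.58, 2.93, 3.72 and 3.76 CPM in SMA, with -0.091 ± 0.19 (edgeR, adjusted p = 0.700). The groups overlapped for both neighbours. Counts of Hoxc9 (102976439 to 102985099) relative to those of Hoxc10, which need no scaling, were 0.151 to 0.218 in WT and 0.407 to 0.449 in SMA, a ratio chosen after the data were seen.

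Hoxa5 and Hoxa6, neighbours in the Hoxa cluster on the minus strand of chromosome 6, rose together. Hoxa5 (52201754 to 52204587), an anterior gene that patterns the neck and upper trunk, had 5.85, 6.001, 6.21, 6.57 and 5.32 CPM in WT 1 to 5 and 10.3, 9.32, 9.92 and 11.4 CPM in SMA 1 to 4. Hoxa6 (52206288 to 52208722) had 0.835, 0.871, 0.953, 1.05 and 1.17 CPM in WT and 1.83, 2.00, 1.59 and 2.16 CPM in SMA. The groups did not overlap for either gene. Hoxa5 rose by 0.77 ± 0.098 on the log2 scale, or 1.71-fold (edgeR, adjusted p = 4.5e-05), and Hoxa6 by 0.95 ± 0.19, or 1.94-fold (edgeR, adjusted p = 0.00101). The genes on either side did not pass: Hoxa4 had 9.88 ± 1.53 CPM in WT and 8.39 ± 0.615 in SMA, and Hoxa7 had 9.67 ± 1.55 and 8.38 ± 0.464 CPM (SD, n = 5 and 4). Relative to Hoxa4, Hoxa5 counts stood at 0.563 to 0.691 in WT and 1.13 to 1.41 in SMA. Relative to Hoxa7, Hoxa6 counts stood at 0.0706 to 0.127 in WT and 0.191 to 0.248 in SMA.

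The noncoding transcript Hoxaas3, on the opposite strand (52175217 to 52215076), runs across Hoxa4, Hoxa5 and Hoxa6 and overlaps the spans of Hoxa3 and Hoxa7. Hoxa3, Hoxa4 and Hoxa7 were not called, while Hoxaas3 rose as Hoxa5 and Hoxa6 did. Hoxaas3 had 0.220, 0.355, 0.267, 0.280 and 0.354 CPM in WT and 0.658, 0.825, 0.671 and 0.786 CPM in SMA. The rise was 1.29 ± 0.24 on the log2 scale (edgeR, adjusted p = 7.4e-04), and the transcript passed the filter on low counts through the 4 SMA libraries and WT 2. In the basic set of GENCODE M21, no exon bases of Hoxa5 or Hoxa6 lie under exons of another gene. Of those of Hoxa7, 23.3% lie under Hoxaas3. The span of Hoxa3 (52169062 to 52213336), on the same strand as Hoxa5, also runs across Hoxa4, Hoxa5 and Hoxa6. Which annotation the counts rest on is not given in the sources used here.

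Hoxd11, the lower leg gene of the Hoxd cluster (chromosome 2, 74679557 to 74687016), rose from a very low level. It had 1, 7, 2, 5 and 1 counts in WT 1 to 5 and 17, 13, 15 and 15 counts in SMA 1 to 4. Every SMA library was above every WT library, at 0.346 to 0.487 CPM against 0.0354 to 0.226. The log2 fold change was 1.82 ± 0.43 (edgeR, adjusted p = 0.00339). The gene passed the filter on low counts only through the SMA libraries, where it was high, so its p is not independent of that filter. In GENCODE M21, 23.9% of its exon bases are shared with Gm28309 on the same strand. The gene did not pass the stricter filter of at least 1 CPM in 4 libraries and so had no value there. Its neighbour Hoxd10 had 1.63, 2.26, 2.78, 2.20 and 2.80 CPM in WT and 2.18, 1.41, 1.01 and 1.88 CPM in SMA, with a log2 fold change of -0.53 ± 0.24 that did not pass (edgeR, adjusted p = 0.0833).

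**Figure D5:**
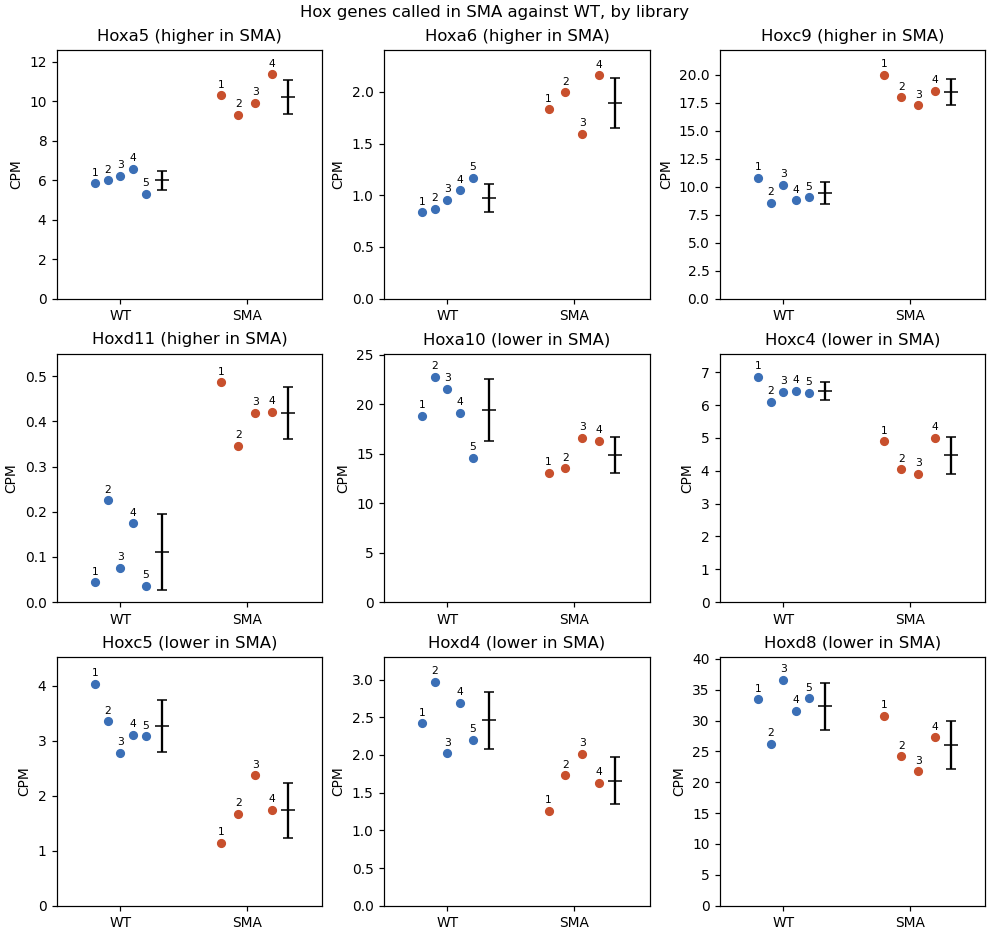
CPM of the 9 called Hox genes in each library, numbered by replicate, with the group mean and SD in black at the right of each group. The groups do not overlap for Hoxa5, Hoxa6, Hoxc9, Hoxd11, Hoxc4, Hoxc5 and Hoxd4, and they overlap for Hoxa10 and Hoxd8.

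The falls lay mostly at the anterior end of Hoxc and in Hoxd. Hoxc4 had 6.86, 6.10, 6.40, 6.43 and 6.38 CPM in WT 1 to 5 and 4.89, 4.05, 3.91 and 4.997 CPM in SMA 1 to 4, and Hoxc5 had 4.04, 3.35, 2.78, 3.11 and 3.08 CPM in WT and 1.15, 1.68, 2.38 and 1.74 CPM in SMA. All SMA libraries were below all WT libraries for both genes of this neighbouring pair. Hoxc4 fell by 0.53 ± 0.11 on the log2 scale (edgeR, adjusted p = 0.00187) and Hoxc5 by 0.91 ± 0.21 (edgeR, adjusted p = 0.00279). Scaled to library totals, Hoxc4 did not pass, at -0.29 on the log2 scale (edgeR, adjusted p = 0.0684). Hoxc6, next in the cluster, had 6.33, 4.94, 5.34, 6.01 and 8.15 CPM in WT and 4.04, 4.71, 5.82 and 4.997 CPM in SMA, with -0.33 ± 0.16, and did not pass (edgeR, adjusted p = 0.0993), and the groups overlapped. In GENCODE M21 the span of Hoxc5 (102967443 to 103017429) starts within Hoxc10 and covers Hoxc9, Hoxc8 and Hoxc6. How reads of transcripts that cross several of these genes were assigned is not stated.

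The calls of the other 3 genes that fell depended on the libraries and the scaling. Hoxd4, an anterior gene, had 2.42, 2.97, 2.02, 2.69 and 2.20 CPM in WT 1 to 5 and 1.26, 1.73, 2.01 and 1.63 CPM in SMA 1 to 4, and WT 3 and SMA 3 nearly met. It fell by 0.57 ± 0.19 on the log2 scale (edgeR, adjusted p = 0.0216), and 45.1% of its exon bases are shared with Gm28230 on the same strand in GENCODE M21. The call was lost under total counts, with sex as a covariate and without SMA 1 or WT 2, at adjusted p-values of 0.228, 0.148, 0.0692 and 0.0522 by edgeR. Hoxa10, of the thigh, had 18.8, 22.8, 21.5, 19.1 and 14.6 CPM in WT and 13.1, 13.53, 16.6 and 16.3 CPM in SMA, with WT 5 inside the SMA range. It fell by 0.38 ± 0.13 (edgeR, adjusted p = 0.0249), and the call was lost under total counts at 0.467 and without SMA 1, SMA 2, WT 2 or WT 3, at 0.0567 to 0.0802. Hoxd8 had 33.5, 26.2, 36.5, 31.6 and 33.6 CPM in WT and 30.8, 24.2, 21.8 and 27.3 CPM in SMA. It fell by 0.31 ± 0.12 (edgeR, adjusted p = 0.0375), the groups overlapped, and the call held without SMA 1 or WT 2 but not without any 1 of the other 7 libraries.

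Among the 22 genes that did not pass were most of the Hoxb cluster and the abundant genes Hoxa9 and Hoxd9. All 8 tested Hoxb genes were among them, with log2 fold changes from -0.40 for Hoxb7 to 0.59 for Hoxb9. Hoxb7 had 2.59, 2.52, 2.02, 2.52 and 1.84 CPM in WT and 1.46, 1.73, 2.15 and 1.63 CPM in SMA, and Hoxb3 had 5.41, 4.68, 3.73, 5.94 and 3.54 CPM in WT and 5.67, 4.82, 7.38 and 4.58 CPM in SMA. Both pairs of groups overlapped, with SMA 3 the highest SMA library for each. Hoxa9 had 18.6, 17.9, 20.3, 20.1 and 15.8 CPM in WT and 17.3, 14.4, 19.9 and 18.6 CPM in SMA. Its log2 fold change was -0.078 ± 0.11. Hoxa4 had 9.89, 9.29, 10.9, 11.7 and 7.69 CPM in WT and 9.05, 7.70, 8.75 and 8.09 CPM in SMA, with -0.24 ± 0.12. Hoxd9 had 11.6, 9.29, 12.9, 11.7 and 12.4 CPM in WT and 14.1, 10.5, 7.86 and 12.4 CPM in SMA, with -0.045 ± 0.16 and SMA 3 the lowest of all 9 libraries.

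Of 10 tested genes of groups 1 to 4, 0 rose and 2 fell, with a median log2 fold change of -0.27. Of 11 genes of groups 5 to 8, 2 rose and 2 fell, with a median of -0.091, and of 10 genes of groups 9 to 13, 2 rose and 1 fell, with a median of -0.047. Over all genes tested, 27.7% were called higher and 27.2% lower, with a median of 0.006. Under scaling to total counts the 3 medians were -0.033, 0.148 and 0.173 in the same order, against 0.24 over all genes. Across genes, Spearman's rho of log2 fold change with paralogue number was 0.30 over all 31 genes, 0.16 over 10 Hoxa genes, 0.24 over 8 Hoxb genes, 0.79 over 7 Hoxc genes and 0.43 over 6 Hoxd genes. These genes share libraries and cluster neighbourhoods and are not independent, so rho is a description only.

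Noncoding transcripts of the clusters were tested alongside. Of 20 noncoding transcripts listed, 16 were in the table and 9 were tested, of which 2 rose, 2 fell and 5 did not pass, with a median log2 fold change of 0.38. The called share was 44.4%, against 54.9% of all genes tested. Hotairm1, a noncoding transcript of the Hoxa cluster, rose by 0.65 ± 0.18 (edgeR, adjusted p = 0.0107), from 1.59 ± 0.358 to 2.49 ± 0.111 CPM. Halr1, which lies outside the 3′ end of the Hoxa cluster (chromosome 6, 52102949 to 52113684), fell by 2.26 ± 0.42 (edgeR, adjusted p = 8.0e-04), with 0.484, 0.871, 0.610, 0.734 and 0.496 CPM in WT and 0.0286, 0.213, 0.196 and 0.0842 CPM in SMA, and it passed the filter on low counts only through WT. Hotair, the noncoding transcript between Hoxc12 and Hoxc11, fell by 0.50 ± 0.17 (edgeR, adjusted p = 0.0247), from 2.68 ± 0.374 to 1.90 ± 0.272 CPM.

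The clusters also hold microRNA genes of the miR-10 and miR-196 families, which are known to act on Hox mRNAs. The mature sequences, from RefSeq on GRCm38.p6, are shown because each family lies beside several of the genes above, with the seed (bases 2 to 8) in capitals.
mmu-miR-196a-5p: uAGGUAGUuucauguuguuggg
mmu-miR-196b-5p: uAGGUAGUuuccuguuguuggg
mmu-miR-10a-5p: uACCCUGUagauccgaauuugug
mmu-miR-10b-5p: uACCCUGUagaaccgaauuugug
Both members of a family share 1 seed, AGGUAGU for miR-196 and ACCCUGU for miR-10. Mir196a-2 lies between Hoxc10 and Hoxc9, and Mir196b within the span of Hoxa9. The libraries hold polyadenylated RNA, so counts on these rows are not mature microRNA. Mir196b was tested, at 0.287 ± 0.133 CPM in WT and 0.519 ± 0.259 CPM in SMA, and did not pass (edgeR, adjusted p = 0.137), while the other 4 microRNA rows of these families were too low to test.

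Lists of genes that set or keep the Hox code had called shares of 44.4% for cofactors, 60.9% for Polycomb and Trithorax genes and 64.7% for upstream signals, where 54.9% of all genes tested were called. Of 9 Hox cofactor genes, all tested, 3 rose, 1 fell and 5 did not pass, with a median log2 fold change of 0.24. Pbx2, a partner in DNA binding, rose by 0.24 ± 0.077 and Pknox2 by 0.47 ± 0.16, while Pknox1 fell by 0.25 ± 0.078 (edgeR, adjusted p = 0.0205, 0.0238 and 0.0175). Of 23 Polycomb and Trithorax genes, whose products repress or maintain Hox transcription, 12 rose, 2 fell and 9 did not pass, with a median of 0.27. The Polycomb gene Cbx7 rose by 1.54 ± 0.10, from 10.3 to 29.96 CPM, the histone methyltransferase gene Kmt2b by 1.27 ± 0.090 and Ezh1, the Polycomb methyltransferase of resting cells, by 1.22 ± 0.098 (edgeR, adjusted p = 4.5e-07, 5.9e-07 and 1.5e-06). Of 24 listed genes of retinoic acid and other upstream signals, 17 were tested, of which 5 rose and 6 fell, with a median of 0.041. The retinoid X receptor gene Rxrb rose by 0.82 ± 0.062 and Rxrg fell by 0.92 ± 0.078, and Dhrs3, which reduces retinaldehyde, rose by 1.10 ± 0.087 (edgeR, adjusted p = 1.0e-06, 2.2e-06 and 1.3e-06). Gdf11, a secreted factor that places the trunk to tail Hox boundary, was among those that fell, with -1.66 ± 0.19. It was picked after its values were seen.

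Limb field genes other than Hox had a called share of 45.5%, against 54.9% of all genes tested. Of 29 listed, 22 were tested, of which 4 rose, 6 fell and 12 did not pass, with a median log2 fold change of -0.12, which was 0.12 under scaling to total counts. The mesodermal homeobox gene Meox1 fell by 1.22 ± 0.12, from 16.0 to 6.87 CPM, and Prrx1, a homeobox gene of limb mesenchyme, fell by 0.65 ± 0.092, from 89.4 to 56.9 CPM (edgeR, adjusted p = 8.8e-06 and 9.7e-05). Lhx9, a LIM homeobox gene of limb mesenchyme, had 2.99 CPM in SMA 3 and at most 0.0762 CPM in each of the other 8 libraries, and Lhx2 had 1.37 CPM in SMA 3 and at most 0.664 elsewhere. SMA 3 was the library with the largest Hoxb and smallest Hoxd share.

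Lists of cell type markers had called shares both above and below the 54.9% of all genes tested. In bulk tissue, fewer cells of a type and less RNA per cell cannot be told apart. Of 10 fibroblast markers 1 rose and 7 fell, led by Lum at -1.41 ± 0.12, Fbn1 at -0.98 ± 0.15 and Dcn at -0.48 ± 0.11. The list summed to 1168 to 1840 CPM in WT and 1011 to 1237 CPM in SMA. Of 7 tendon markers, 6 fell, led by Scx, Tnmd and Comp, with sums of 130.0 to 278 CPM in WT and 79.1 to 130.2 CPM in SMA. Of 8 muscle fibre markers 6 fell, led by Mb, Ckm and Ttn, with sums of 73320 to 105700 CPM in WT and 44990 to 54290 CPM in SMA. Of 7 satellite cell markers 5 rose, among them Sdc4 by 0.92 and Chrdl2 by 0.75 on the log2 scale, and 1, Vcam1, fell by 0.92. Their sums were 97.3 to 112 CPM in WT and 135 to 141 CPM in SMA. Sdc4 weighs most in these sums, with means of 39.5 CPM in WT and 74.7 CPM in SMA. Myod1, the next most abundant, did not pass, at 33.5 and 30.4 CPM, and Vcam1 had 10.5 and 5.57 CPM. The sums thus do not show a rise of the whole list. Of 8 Schwann cell markers 7 rose, among them Sox10 and Egr2, with sums of 407 to 939 CPM in WT and 1052 to 2350 CPM in SMA. Of 10 bone and cartilage markers 8 were tested and 6 fell, led by Alpl, Acan and Dmp1, with sums of 25.3 to 205 CPM in WT and 12.2 to 15.8 CPM in SMA. WT 1 and WT 2 held 111 and 19.1 CPM of the bone gene Bglap, against at most 4.04 CPM in the other 7 libraries. Of 7 endothelial markers 0 rose and 2 fell, Tek by 0.40 and Cdh5 by 0.32, a called share of 28.6%, and Kdr did not pass. Of 6 mural cell markers 0 rose and 2 fell, Rgs5 by 1.18 and Acta2 from 517 to 119 CPM, a called share of 33.3%, and Myh11 did not pass. Of 6 immune markers tested 0 rose and 4 fell, led by Adgre1, Ptprc and Lyz2. Of 5 white fat markers 1, Fabp4, rose and 2, Lep and Plin1, fell, and of 4 brown fat markers 1, Elovl3, rose and 1, Ucp1, fell, while Ppargc1a did not pass. The part of any of these cell types in the Hox values was not tested.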

How the data were processed

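Polyadenylated RNA of 9 libraries was sequenced as paired reads of 75 bases from 200 ng of total RNA with RIN above 7, with a stranded kit, per the labels' protocols. The authors deposited a table of whole-number counts per gene, used here for all tests, and a table of normalized values, the signal of each gene, deposited as counts divided by a size factor of 0.734 to 1.23 per library. HTSeq 0.9.1, DESeq2 1.16.1 and the build mm10 are named per the submitters' processing notes, without roles. The aligner, annotation and strand setting: not given in the sources used here.

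Counts were tested with edgeR 4.0.16 in R 4.3.3 (quasi-likelihood F-test, TMM scaling, filterByExpr), with p-values adjusted by Benjamini-Hochberg over the 15873 genes tested of 32594, of which 9145 had no count. A gene was called at an adjusted p under 0.05, and SE is the fold change over the root of F. CPM used the TMM-scaled totals. Alternatives were median-of-ratios and total-count scaling, 2 filters, DESeq2 1.42.0, limma 3.58.1 (voom), sex as covariate, the replicate number as a block, and leaving out each library. The code was tested on simulated data. No pair of libraries agreed within sampling noise. Exons and positions came from the basic set of GENCODE M21.

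The Hox genes, the 5 pathway and 12 marker lists and the tests were chosen with earlier results of these data known. Values per library are given for each called Hox gene, the 2 highest per kilobase in each cluster, Hoxa13, Hoxc13, Hoxd13, Hoxc6, Hoxc8, Hoxc9, Hoxc10, Tbx4, Tbx5 and Pitx1, and each other list names its 3 genes of lowest adjusted p, apart from 1 limb field gene and 1 Schwann cell marker not reported here. Other genes named were chosen after their values were seen. Single-gene values of these and of 1 Hox gene are neither printed nor drawn, and all are included in the counts and medians. Of 189 listed symbols 184 were in the table.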

Additional observations from a re-analysis of the deposited data

Results flagged for a closer look

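Among 88 groups of libraries examined for a library far from the rest, 2 held one, where chance gives about 1 in 20. Hoxb6 was at 1.37 CPM in SMA 1, with the other SMA libraries at 2.24 to 2.40 CPM. Hoxc13 was at 1.33 CPM in WT 4, with the other WT libraries at 0 to 0.114 CPM.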

How the results depend on the processing

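In all 18 alternatives but 1 the number of Hox genes called higher was 4, and it was 3 with the stricter filter, where Hoxd11 was not tested. The number called lower, 5 as reported, was 1 with total counts only, 8 without WT 5 and SMA 3 together, which was chosen after seeing the data, and 3 to 6 with 1 library left out, the 3 coming without SMA 2 or without WT 3. Of all genes tested, 53.86% were called with total counts only and 58.95% without WT 5 and SMA 3. With 1 library left out, 47.66% to 56.5% of all genes tested were called. Hoxa5, Hoxa6, Hoxc5, Hoxc9 and Hoxd11 kept their call in every alternative that tested them. Hoxa10, Hoxc4, Hoxd4 and Hoxd8 lost it in at least 1, and 8 genes not called as reported were called in at least 1. The sign of the fold change differed from the reported one in 43 pairs of gene and alternative, over 13 genes, of which 0 were called either way. The share of groups 5 to 8 differed by 0.298 percentage points, SMA minus WT, per kilobase and by -0.781 in raw reads, and by -0.23 to 0.78 with 1 library left out.

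With a replicate block 4 genes were called higher and 5 lower, Hoxa4 gaining a call (edgeR, adjusted p = 0.0395) and Hoxd8 losing it (0.0666). The correlations of same-numbered libraries were 0.118, -0.0055, -0.048 and 0.097, so the numbers were not taken to pair the samples. Sex as a covariate left 4 higher and 4 lower. Of all genes tested, 49.74% were called with the replicate block and 43.36% with sex as a covariate, against 54.89% as reported. The 8 Hox genes of lowest counts were not tested, so depth limits what can be said of them.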
